A study of Mus musculus with 43 samples.

Results

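Pairs of neighboring CCCGGG sites were examined, that is, places in the mouse genome where 2 listed sites lay within 1000 bp of each other and had no other listed site within that distance. A pair was kept when each site was the only neighbor of the other on chromosomes 1 to 19 and when both sites had at least 20 reads in at least 4 libraries of a group. Of 173449 listed sites, 164896 lay on these chromosomes and formed 12368 such pairs by position, of which 4836 pairs (9672 sites) met the coverage condition. The rule used positions and read totals and no methylation value. Distances within the pairs ran from 6 to 999 bp, with a median of 232 bp and quartiles of 135 and 362 bp. Positions are those of build mm9, and since the annotation at hand was of another build, the pairs are given by position and not by gene.

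The DNA came from laser-microdissected, formalin-fixed, paraffin-embedded colon of female Swiss Webster mice. All mice received the carcinogen azoxymethane (AOM) at 7 weeks of age and 4 cycles of the colitis-inducing agent dextran sulfate sodium (DSS) from 9 weeks, so every group, the reference groups included, is tissue of colitic, carcinogen-treated animals. From 11 weeks the chow held 0, 2 or 8 mg folic acid (FA) per kg for 16 weeks, and tissue was taken at 27 weeks. Cohort 1 held non-dysplastic (ND) epithelium on each diet, named 0ND (5 libraries), 2ND (7) and 8ND (6). Cohort 2 held 0ND (6) and 8ND (6) again and polypoid dysplasia on both diets, named 0P (6) and 8P (7), with 2 lesions of mouse 1856 in 8P. Each 0P library had a 0ND library of the same mouse in cohort 2, and each 8P library an 8ND library. Of the mice in cohort 1, 8 also gave tissue to cohort 2, so the cohorts are not independent. The labels name the ND tissue of both cohorts as epithelium, but by the study's account a second kind of dissected ND sample took in the lamina propria as well, and the labels do not say which libraries these are. The cell types could not be checked, since methylation at these sites gives no defining marker.

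Methylation of cytosine in CpG is copied after DNA replication by a maintenance methyltransferase. Neighboring CpGs tend to carry the same state, though not at every place. Unmethylated stretches are typical of CpG islands at promoters, and most other CpGs in normal tissue are methylated. In colon neoplasms, loss of methylation over wide regions and gain at some islands are both well known. Folate supplies the methyl groups from which the methyl donor S-adenosylmethionine is made. The assay, digital restriction enzyme analysis of methylation (DREAM), cuts unmethylated CCCGGG with SmaI and then the remaining methylated sites with XmaI, so that the end of each sequenced fragment records the state of 1 site. A fragment cut at both sites of a pair carries 1 of them at each end.

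Libraries had 1488920 to 16923453 reads on listed sites (median 5482215), and 1841 to 4399 pairs had 20 reads at both sites. The levels below are percentages of methylated reads after the authors' adjustment with spiked standards, which multiplied the odds of methylation by 0.992 to 4.04 and more in cohort 1 (1.24 to 4.04) than in cohort 2 (0.992 to 1.97). A library with no methylated read at 20 reads allows a level of up to 15% before this adjustment, for counting error only. After adjustment the limit is higher where the factor is above 1. The spiked standards took 44.8% and 48.3% of the reads in the 8ND libraries of mice 1841 and 1858 in cohort 1 and 1.78% to 12.6% in its other libraries, against 6.98% to 77.4% in cohort 2. In cohort 2, the 0ND libraries of mice 1805, 1808 and 1820 and the 8ND libraries of mice 1830, 1848 and 1858 had over 8% of their reads on the 100 most-read sites. The 8ND library of mouse 1856 in cohort 2 stood with the polyps by coverage, with 48630 sites at 20 reads against 47798 to 54855 in 8P, and its label is written in the form used for polyps. Counts of called pairs are given below with and without these libraries. The fits without those over 8% had fewer ND libraries of cohort 2 and a lower minimum of covered libraries per group.

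Coverage of a pair depended on its distance, which was grouped in classes that leave out their lower and hold their upper bound. Of the pairs listed by position, those kept were 200 of 1583 (12.6%) at 1 to 50 bp, 594 of 851 (69.8%) at 50 to 100 bp, 1266 of 1920 (65.9%) at 100 to 200 bp, 1877 of 2739 (68.5%) at 200 to 400 bp, 664 of 2938 (22.6%) at 400 to 700 bp and 235 of 2337 (10.1%) at 700 to 1000 bp. The fragments had been cut from gel slices of limited size before sequencing. The part of this step in the coverage by distance was not tested, and 2186 pairs were covered in all 7 groups.

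The read totals of the 2 sites were closest at intermediate distances. At 1 to 50 bp, the smaller total was at the median 72.6% to 97.1% of the larger one in the 18 libraries with at least 20 such couples, and under 50% of couples with either site covered had both covered in 38 of 43 libraries. At 50 to 100 bp the ratio was 86.4% to 99.5%. At 100 to 200 bp, the smaller read total was at the median 94.0% to 99.2% of the larger one in each of the 43 libraries (median of libraries 98.0%), and 86.1% to 92.3% of couples with either site covered had both covered. At 200 to 400 bp this ratio was 82.9% to 98.8%, at 400 to 700 bp 62.0% to 93.3% and at 700 to 1000 bp 64.6% to 81.8%. For adjacent sites 1000 to 2000 bp apart it was 18.7% to 66.7%. How many fragments gave a read to both counts was not tested, because the files hold counts per site and not per fragment. The 2 sites of a pair are for this reason not taken as independent measurements of a library.

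**Figure D1:**
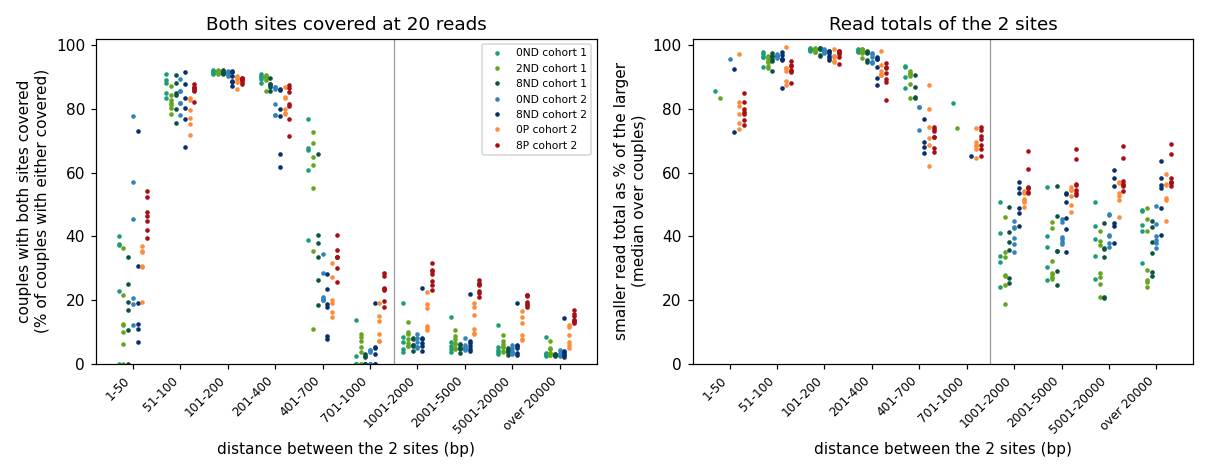
Smaller read total of 2 adjacent sites as a percentage of the larger (y axis) by the distance between the sites in bp (x axis). Each point is the median of 1 library over the couples of a distance class, and the ratio lies between 94.0% and 99.2% at 100 to 200 bp and between 18.7% and 66.7% at 1000 to 2000 bp.

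Within pairs, the 2 methylation levels lay close together over all pairs in non-dysplastic tissue, and further apart at pairs of intermediate level. The median absolute difference between the group means of the 2 sites was 1.71 percentage points in 0ND of cohort 1 (3092 pairs), 3.02 in 2ND (3809 pairs) and 1.94 in 8ND (3038 pairs). In cohort 2 it was 1.65 points in 0ND (2700 pairs) and 1.68 in 8ND (2395 pairs). The polyps had wider differences, at 3.39 points in 0P (3219 pairs) and 4.09 in 8P (4485 pairs), over different pairs. Among pairs with a mean level of 20% to 80%, the median was 13.6 points in 0ND, 14.7 in 2ND and 10.8 in 8ND of cohort 1. In cohort 2 the median of such pairs was 10.4 points in 0ND, 9.80 in 8ND, 22.4 in 0P and 21.3 in 8P. Pairs with more than 20 points between the sites made up 6.97% to 14.0% in the 5 ND groups, 21.5% in 0P and 22.0% in 8P. Across pairs, Pearson's r between the levels of the 2 sites was 0.916 to 0.958 in the ND groups, 0.844 in 0P and 0.821 in 8P, as a description over pairs that share their libraries.

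Most pairs were in the same state at both sites. Of the classes in 0ND of cohort 1, 1604 of 3092 pairs were under 20% at both sites, 549 were between 20% and 80% at both and 553 were at 80% or more at both. Another 154 pairs crossed the 20% border and 227 the 80% border. A low site (under 20%) next to a high one (80% or more) was found in 5 of 3092 pairs, and in 2 to 10 pairs of the other ND groups. There were 22 such pairs of 3219 in 0P and 45 of 4485 in 8P.

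Sites beyond the pair limit agreed less than those of pairs in each group, while the order of classes within the limit differed between groups. In 8P, the group with the most covered pairs, r was 0.873 at 1 to 50 bp (199 pairs), 0.870 at 50 to 100 bp, 0.879 at 100 to 200 bp, 0.826 at 200 to 400 bp, 0.661 at 400 to 700 bp and 0.509 at 700 to 1000 bp (232 pairs). For adjacent listed sites beyond the pair limit, r was 0.348 at 1000 to 2000 bp, 0.143 at 2000 to 5000 bp and 0.0089 at 5000 to 20000 bp. The share of couples more than 20 points apart rose over the same classes from 8.54% at 1 to 50 bp to 40.5% at 700 to 1000 bp and 64.1% at 5000 to 20000 bp. For 0ND of cohort 1, r was 0.884 at 50 to 100 bp (225 pairs), 0.954 at 100 to 200 bp, 0.938 at 200 to 400 bp and 0.901 at 400 to 700 bp, and 0.0986 at 1000 to 2000 bp over 64 couples. In 8ND of cohort 1 the highest r within the limit, 0.982, was at 400 to 700 bp over 31 pairs. The ratio of read totals changed over the same distances, and its part in the levels was not tested.

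**Figure D2:**
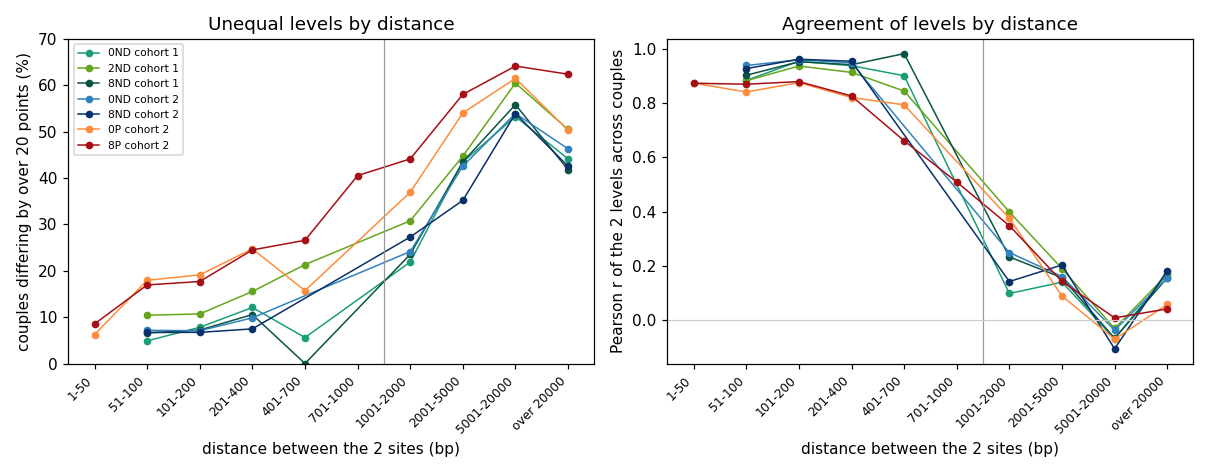
Agreement of methylation at 2 adjacent sites by their distance in bp for each of the 7 groups, from group means, with classes of under 20 couples left out. Pearson's r lies at 0.82 or above in every group from 100 to 400 bp and between 0.0986 and 0.399 at 1000 to 2000 bp, and the share of couples over 20 points apart is 5.61% to 26.6% at 400 to 700 bp, apart from 0% among 31 pairs in 8ND of cohort 1, and 21.9% to 44.1% at 1000 to 2000 bp.

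Pairs whose 2 sites held different levels were then called with limma's moderated test of the per-library difference (Benjamini-Hochberg adjusted p under 0.05 over all adjacent couples at any distance, and a mean difference over 20 points). In 0ND of cohort 1, 190 of 3092 pairs (6.14%) were called, beside 4.55% of all adjacent couples tested. The counts were 485 of 3791 pairs (12.8%) in 2ND beside 8.48% of all couples, 196 of 3033 (6.46%) beside 4.77% in 8ND, 79 of 2694 (2.93%) beside 2.61% in 0ND of cohort 2 and 126 of 3144 (4.01%) beside 3.56% in 0P. In 8ND of cohort 2, 6 of 2378 pairs (0.252%) were called beside 0.624% of all couples, and in 8P 661 of 4200 (15.7%) beside 15.9%, so that outside 2ND, 0ND and 8ND of cohort 1 the share in pairs was near or under that of all couples. All adjacent couples include clusters of 3 or more sites, and among couples more than 1000 bp apart 22.2% to 50.6% were called in 0ND of cohort 1. The site with the lower coordinate was the higher one in 96 of the 190 pairs and the other in 94. These counts moved with the libraries used: without 1 library of 0ND in cohort 1 at a time, 42 (without mouse 1809) to 169 pairs were called, and the count moved by more than 1.5 times on leaving out any of 4 of 5 libraries of 0ND and 5 of 6 of 8ND in cohort 1, and 6 of 6 of 0ND, 2 of 6 of 8ND and 5 of 6 of 0P in cohort 2.

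Pairs called in more than 1 group nearly always differed in the same direction, while the share called again varied widely. Of 184 pairs called in 0ND of cohort 1 and tested in 8ND of that cohort, 121 (65.8%) were called there too, which were 65.1% of the 186 called in 8ND, and none in the opposite direction. Of 183 called in 0ND of cohort 1 and tested in 8P, 151 (82.5%) were also called in 8P (30.8% of its 490), with 1 in the opposite direction. The share called again was 37.5% of 152 pairs in 0ND of cohort 2, which were 77.0% of the 74 called there, 37.0% of 173 pairs in 0P (52.9% of its 121) and 4% of 125 pairs in 8ND of cohort 2 (5 of its 6). Of 2171 pairs tested in all 7 groups, 394 were called in at least 1 and 3 in all 7. Pairs called as different in level had nearly equal read totals as well: at 100 to 200 bp in 0ND of cohort 1, the smaller total was at the median 98.3% of the larger in 66 called pairs and 99.2% in 1137 other pairs.

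Pair S (chromosome 2, positions 172382813 and 172382940, 127 bp apart) had the largest level difference at 200 bp or less in 0ND of cohort 1. Its lower-coordinate site was nearly fully methylated and the other nearly free of methylation, with a difference of 92.0 ± 2.3 points (SD, n = 4; limma adjusted p = 0.000247). The same step stood in 2ND at 92.8 ± 4.3 points (n = 7), in 8ND of cohort 1 at 90.9 ± 3.1 (n = 5), in 0ND of cohort 2 at 91.9 ± 4.0 (n = 6) and in 8ND of cohort 2 at 85.3 ± 15.1 (n = 5). In polyps the unmethylated site could not be read: it had 5 or fewer reads in each of the 13 polyp libraries, while the methylated site had up to 725. The 8ND library of mouse 1856 also had 5 or fewer reads there.

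Pair T (chromosome 19, positions 6501495 and 6501622, 127 bp apart) held the opposite step in all 7 groups. In 0ND of cohort 1 its lower-coordinate site was at 7.56% ± 4.60 and the other at 84.0% ± 8.25 (SD, n = 5). The difference was 76.4 ± 5.6 points there, 73.7 ± 7.0 in 8ND of cohort 2 (n = 6), 87.9 ± 11.5 in 0P (n = 5) and 85.3 ± 10.7 in 8P (n = 7), and every group passed the limma call. Pair U (chromosome 18, 138 bp apart) had a difference of 75.9 ± 17.7 points in 0ND of cohort 1 (n = 4), 91.7 ± 7.1 in 2ND (n = 6), 86.6 ± 13.9 in 8ND of cohort 1 (n = 5) and 80.4 ± 16.5 in 8P (n = 6). No pair at 700 to 1000 bp was covered in 0ND of cohort 1.

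Differences between libraries of a group were partly shared by the 2 sites. At pairs with a mean level of 20% to 80%, covered in every library of the cohort, the shared part of the between-library variance was 0.644 in cohort 1 (389 pairs) and 0.459 in cohort 2 (213 pairs), with a median SD of 8.48 and 14.5 points. It was 0.647 at 100 to 200 bp and 0.666 at 200 to 400 bp in cohort 1, and 0.442 and 0.469 in cohort 2. The mean level of each library and the mean of each group at a site were taken off first. The values of cohort 2 pool ND tissue and polyps, while those of cohort 1 are from ND tissue alone, so the cohorts are not alike in this measure. With 8 and 3 couples beyond 1000 bp, no reference value could be given. Reads of the same fragment would enter both sites, and their part was not tested.

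The effect of FA on non-dysplastic epithelium was compared in cohort 1. Sites were called from a two-sided equal-variance test on the adjusted percentages, which had to reach 0.05 without correction, together with a difference of over 5 points. For 8ND against 0ND, 120 of 2894 pairs were lower at both sites, beside 167 of 10489 adjacent couples at any distance (1.59%). Higher at both sites were 5 pairs, beside 13 of all these couples (0.124%). None was called in opposite directions and 263 had a call at 1 site. Sites in pairs were called in 8.86% of tests, beside 4.85% of all sites tested, and pairs with both sites called the same way made up 4.32%, beside 1.72% of all adjacent couples. Over all sites 4.2% were called lower and 0.643% higher, and the groups did not overlap at 1.27%. No site had an adjusted p under 0.05 by limma, so none of these pairs passes a correction over all sites. Leaving out the 0ND library of mouse LC1810 gave 75 pairs and that of mouse 1809 gave 78, with fewer pairs tested, and without the 8ND libraries of mice 1841 and 1858 there were 67. A quasi-binomial test on the read counts called 32.

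The partner site usually moved with a called site. At 459 pair sites called lower in 8ND against 0ND, the median change was −13.5 points at the called site and −10.5 at its partner, 96.3% of partners had the same sign and 52.3% were called too. At called sites whose adjacent site was more than 1000 bp away, the neighbor's median change was −0.044 points and 54.5% had the same sign (44 sites). These couples were not matched to the pairs by level, here or in the later comparisons. In 0ND of cohort 1, 4.69% to 24.3% of them by distance class held a site under 20% and another at 80% or more, against 0.162% of pairs. A site near 0% has little room to fall, and the part of the starting level was not tested. Across the 2894 pairs, r between the changes of the 2 sites was 0.702, with 0.745 at 100 to 200 bp and 0.679 at 200 to 400 bp, and −0.0028 over 373 couples beyond 1000 bp. By the level in 0ND, 1 of 1532 pairs under 20%, 74 of 753 at 20% to 80% and 45 of 609 at 80% or more were lower at both sites.

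Pairs A, B and C had the largest mean changes among the pairs called the same way at both sites without overlap of the diets. Of these, pair A (chromosome 17, positions 80548379 and 80548491, 112 bp apart) changed most. Its lower-coordinate site was at 71.4%, 81.8%, 85.5%, 58.05% and 52.35% in the 5 libraries of 0ND, and between 27.0% and 42.8% (median 35.4%) in 8ND. The other site was at 58.6%, 70.1%, 66.3%, 56.1% and 45.8% in 0ND and between 16.8% and 26.8% (median 22.1%) in 8ND. The diets did not overlap at either site, as the choice of the pair required. The means fell by 34.7 and 37.4 points (limma adjusted p = 0.195 and 0.0531), from 44 to 427 reads per library and site. In 2ND the sites lay in between, at 44.4% ± 12.1 and 32.3% ± 15.1 (SD, n = 7).

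Pair B (chromosome 9, positions 46426228 and 46426545, 317 bp apart) fell from 84.8% ± 9.0 (n = 5) to 44.8% ± 19.1 (n = 5) at the lower-coordinate site and from 90.2% ± 5.7 to 59.9% ± 11.6 at the other, without overlap and with adjusted p of 0.332 and 0.26 by limma. Only 5 of the 6 8ND libraries were covered there. Pair C (chromosome 6, positions 50328253 and 50328454) was at 75.6%, 70.8%, 73.0%, 48.1% and 56.2% in 0ND at its lower-coordinate site and at 18.7% to 43.3% (median 30.4%) in 8ND. Its other site was at 73.1%, 75.2%, 76.2%, 54.4% and 58.8% in 0ND and at 20.9% to 46.95% (median 32.0%) in 8ND. By the same choice the groups did not overlap at either site of pair C, with adjusted p of 0.247 and 0.174 by limma.

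For 2ND against 0ND in cohort 1, 115 of 3079 pairs were lower at both sites (beside 1.26% of all adjacent couples). Higher at both was 1 pair (beside 0.0629%), and 303 had a call at 1 site, with no opposite calls. Pair sites were called in 8.69% of tests (all sites 4.49%, with 4.04% lower and 0.452% higher, and no overlap of the groups at 0.793%), and 3.77% of pairs had both sites called the same way (all adjacent couples 1.32%). This count rested on the authors' adjustment: with unadjusted percentages 5 pairs were called, 3 lower and 2 higher, and with the quasi-binomial test on the counts 3, all higher. Without the 0ND library of mouse LC1810 or 1809, 62 and 71 pairs were called. No site passed Benjamini-Hochberg adjustment by limma. The comparison uses the same 0ND libraries as 8ND against 0ND. At 500 pair sites called lower, the median change was −10.9 points and that of the partner −7.67, and r over all pairs was 0.652, against 0.0552 beyond 1000 bp.

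The pairs with the largest changes without overlap at both sites were pairs D, E and F, and pair D changed much more at 1 of its sites. Pair D (chromosome 11, positions 113298880 and 113299176, 296 bp apart) fell from 62.8% ± 10.7 (n = 5) to 41.2% ± 7.4 (n = 6) at the lower-coordinate site and from 97.3% ± 1.8 to 91.0% ± 1.6 at the other. Pair E (chromosome 13, positions 98568500 and 98568824, 324 bp apart) fell from 89.9% ± 2.1 to 77.0% ± 9.0 and from 89.8% ± 4.5 to 80.1% ± 5.56. Pair F (chromosome 8, positions 122736583 and 122736785, 202 bp apart) fell from 88.5% ± 5.4 to 75.8% ± 9.85 and from 95.5% ± 2.5 to 88.1% ± 3.0. Their adjusted p by limma was 0.30 to 0.63.

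In cohort 2, fewer pairs passed for 8ND against 0ND: 29 of 2341 were lower at both sites (beside 0.37% of all adjacent couples). Higher at both were 2 (beside 0.0231%), 95 had a call at 1 site and none was opposite. Pair sites were called in 3.35% of tests (all sites 1.69%, with 1.47% lower and 0.221% higher, and no overlap at 0.267%), and 1.32% of pairs had both sites called the same way (all adjacent couples 0.393%). No site passed Benjamini-Hochberg adjustment by limma. A coverage minimum of 50 reads left 19 such pairs, the libraries under 8% on the most-read sites gave 20, the 0ND group without mouse 1809 gave 17, the 8ND group without mouse 1856 gave 33 (32 lower and 1 higher) and the quasi-binomial test gave 86. The changes of the 2 sites had r = 0.577 within pairs and 0.0443 beyond 1000 bp. The one pair called without overlap at both sites was pair G (chromosome 2, positions 125337757 and 125337865, 108 bp apart). It fell from 29.1% ± 7.2 to 15.2% ± 2.4 and from 31.6% ± 4.7 to 18.1% ± 6.2 (SD, n = 6 each). In cohort 1, pair G fell by 23.4 and 17.3 points, with both sites called.

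Since 8 mice gave tissue to both cohorts, cohort 2 is no independent repeat of cohort 1. The pairs called lower in cohort 1 mostly moved the same way in cohort 2. Of the 120, 103 were tested in cohort 2 and 73 (70.9%) were lower at both sites, against 31.7% of all 2213 pairs tested in both cohorts. The called pairs started higher, and at a level of 20% or more in 0ND of cohort 1 the shares were 71.6% of the called pairs and 50.6% of 898 other pairs, with median changes in cohort 2 of −7.40 and −2.68 points. Over the 103 pairs, the median change was −14.6 points in cohort 1 and −7.25 in cohort 2, and 11 were called in both. Of the 5 pairs called higher, 4 were tested and 2 had both sites higher in cohort 2. No cohort-by-diet interaction passed at any of 14674 sites tested with limma (lowest adjusted p = 0.857), with 287 sites (1.96%) at an unadjusted p under 0.05. The fit took the libraries of mice in both cohorts as independent.

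Among the 11 pairs called in both cohorts, the 5 with the largest mean change were pairs A and C and 3 others. Pair A fell in cohort 2 from 63.3% ± 11.5 (n = 6) to 35.9% ± 16.4 (n = 5) and from 52.4% ± 11.7 to 30.7% ± 12.2 (n = 6 each), with overlap between the diets at both sites. Pair C fell from 59.1% ± 17.5 to 17.8% ± 12.9 and from 59.8% ± 16.3 to 21.7% ± 16.0 (n = 6 each), without overlap at its lower-coordinate site. Pair H (chromosome 11, positions 98973487 and 98973678, 191 bp apart) was at 67.0%, 79.0%, 69.9%, 61.4% and 72.4% in 0ND of cohort 1 at its lower-coordinate site, and at 31.7% to 56.7% (median 46.2%) in 8ND. In cohort 2 the same site was at 69.2% to 84.1% (median 75.1%) in 0ND and at 26.3% to 78.8% (median 44.98%) in 8ND, which overlapped.

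Pair V (chromosome 5, positions 148746721 and 148746906, 185 bp apart) fell by 25.4 and 23.7 points in cohort 1 and by 19.9 and 23.4 in cohort 2. Pair W (chromosome 16, positions 92344602 and 92344785, 183 bp apart) fell by 21.7 and 24.5 points in cohort 1 and by 21.9 and 37.6 in cohort 2. The lower-coordinate site of pair W minus the other was −19.8 ± 11.4 points in 0ND (n = 5) and −16.9 ± 4.3 in 8ND (n = 6) of cohort 1, and −22.3 ± 11.995 in 0ND and −6.63 ± 10.6 in 8ND of cohort 2 (n = 6 each), where the 8ND libraries lay on both sides of 0. None of these 4 differences was called, that of 8ND in cohort 1 (limma adjusted p = 0.00484) because it was under 20 points. The same step was called in 2ND at −27.0 ± 5.4 points (n = 7) and in 8P at −27.7 ± 9.6 (n = 7). In 0P it was −19.7 ± 13.1 points (n = 6) and not called. Without 1 library at a time, the calls at both sites were lost in 8 of 12 fits at pair V in cohort 2 and in 6 of 11 at pair W in cohort 1. None of these 5 pairs had an adjusted p under 0.05 by limma in either cohort.

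**Figure D3:**
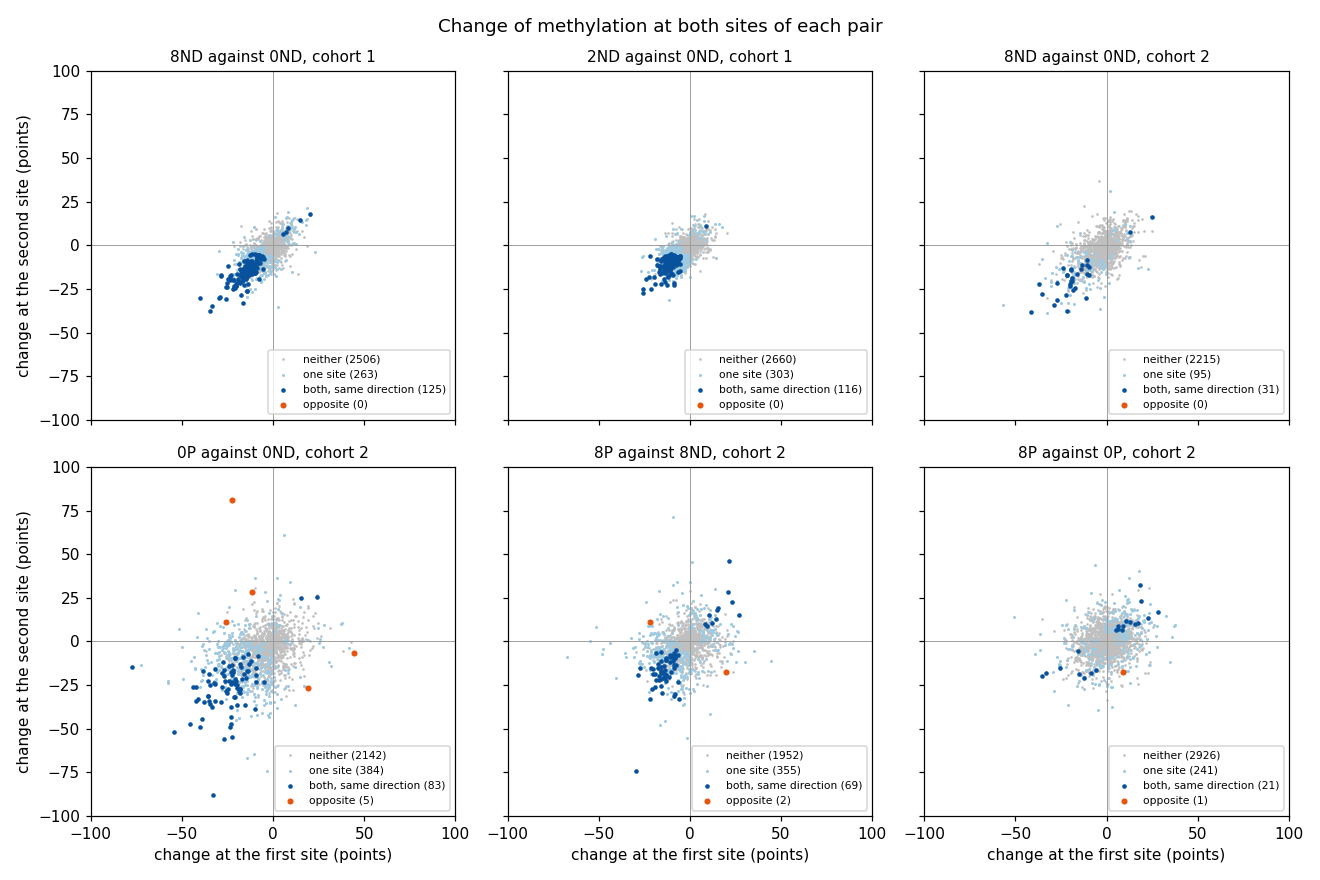
Change of mean methylation in percentage points at the lower-coordinate site (x axis) and at the other site (y axis) of each pair, in 6 comparisons; colors mark pairs with neither, 1 or both sites called. In the 3 comparisons of non-dysplastic tissue the points lie along the diagonal with no opposite calls. In the comparisons with polyps 5 of 2614, 2 of 2378 and 1 of 3189 pairs were called in opposite directions.

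Polyps were compared with non-dysplastic epithelium of the same diet in cohort 2. Coverage differed along with tissue there. Sites at 20 reads numbered 26446 to 44270 in 0P and 47798 to 54855 in 8P, against 17754 to 24475 in 0ND. Of the 8ND libraries, only that of mouse 1856 (48630 sites) reached the range of the polyps. The part of such library differences in the polyp results was not tested. For 0P against 0ND, 81 of 2614 pairs were lower at both sites (beside 1.21% of all adjacent couples) and 2 were higher (beside 0.0207%). Another 5 were called in opposite directions and 384 had a call at 1 site. Pair sites were called in 10.7% of tests (all sites 5.4%, with 4.72% lower and 0.674% higher, and no overlap at 1.31%), and both sites of a pair the same way in 3.18% (all adjacent couples 1.23%). After Benjamini-Hochberg adjustment by limma, 34 sites over the whole table were called, and both sites of 1 pair. With libraries under 8% on the most-read sites alone, and so with fewer 0ND libraries, 38 pairs were called. At 508 pair sites called lower, the median change was −23.4 points and the partner's −11.2, with 31.9% of partners called, and r over all pairs was 0.389, against 0.140 beyond 1000 bp.

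For 8P against 8ND, 58 of 2378 pairs were lower at both sites (beside 0.807% of all adjacent couples) and 11 were higher (beside 0.202%). Another 2 were opposite and 355 had a call at 1 site. Pair sites were called in 10.4% of tests (all sites 5.52%, with 3.68% lower and 1.84% higher, and no overlap at 1%), and both sites the same way in 2.90% (all adjacent couples 1.01%). Limma called 10 sites over the whole table after adjustment and both sites of no pair. A coverage minimum of 50 reads gave 40 pairs, the quasi-binomial test 28, and the libraries under 8% on the most-read sites 30. Without the 8ND library of mouse 1856, 74 of 1961 pairs were called, 58 lower and 16 higher. Of 395 pairs at 80% or more in 8ND, 46 were lower at both sites, as were 12 of 673 at 20% to 80%, while 7 of 1310 pairs under 20% were higher at both and none was lower. The partner's median change at 375 sites called lower was −7.66 points against −16.4 at the called sites, and r was 0.290. No diet-by-tissue interaction passed at 15091 sites tested with limma (lowest adjusted p = 0.295), with 538 sites (3.57%) at an unadjusted p under 0.05.

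Pair H was the one pair with both sites past Benjamini-Hochberg adjustment in 0P against 0ND. Its lower-coordinate site was at 69.2% to 84.1% (median 75.1%) in 0ND and at 7.85% to 44.2% (median 18.3%) in 0P. Its other site was at 77.5% to 89.8% (median 84.3%) in 0ND and at 9.27% to 64.2% (median 26.5%) in 0P. The tissues did not overlap, which the choice of pairs H, I and J required. The means of pair H fell by 54.4 and 51.6 points, and the adjusted p by limma was 0.00898 and 0.0436. In 8P the sites were at 27.8% ± 13.0 and 34.1% ± 15.7 (n = 7), against 49.1% ± 20.1 and 52.5% ± 20.2 in 8ND (n = 6), with a call at the lower-coordinate site alone. The difference between diets in its tissue effect had an adjusted p of 0.803 by limma at both sites.

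At pair I (chromosome 4, positions 132826788 and 132827052, 264 bp apart) the 2 sites drew apart. The lower-coordinate site was at 85.3% to 100% (median 90.1%) in 0ND and at 40.85% to 80.85% (median 63.6%) in 0P. The other site was at 48.7% to 92.0% (median 75.6%) in 0ND and at 0% to 38.3% (median 14.8%) in 0P. The falls of 27.1 and 55.8 points had an adjusted p by limma of 0.194 and 0.0353. For 8P against 8ND the second of these sites went from 73.3% ± 16.1 (n = 6) to 25.6% ± 7.1 (n = 7; adjusted p = 0.0284) and the lower-coordinate site from 86.1% ± 14.8 to 69.9% ± 11.8, which was not called. In cohort 1, both sites of pair I were lower in 8ND than in 0ND without overlap, by 17.7 and 28.5 points.

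Pair J (chromosome 11, positions 79560462 and 79560717, 255 bp apart) fell from 51.2% ± 13.7 to 13.3% ± 8.3 and from 51.5% ± 18.2 to 16.7% ± 6.1 in 0P against 0ND (SD, n = 6 each), without overlap. Its 0ND level in cohort 1 was 29.8% ± 6.4 and 30.6% ± 9.1 (n = 5). In 8P against 8ND the largest falls without overlap were those of pairs L, M and N. Pair L (chromosome 17, positions 25614583 and 25614784) fell from 87.9% ± 7.9 to 69.0% ± 5.9 and from 88.7% ± 8.0 to 62.7% ± 8.3. Its levels in 8ND of cohort 1 were lower than in 8ND of cohort 2, at 74.95% ± 5.51 and 71.5% ± 8.7 (n = 6). They overlapped those of 8P at both sites. Pair M (chromosome 12, positions 103812234 and 103812494) fell by 21.1 and 15.5 points, with 4 of the 6 8ND libraries covered. Pair N (chromosome 9, positions 28482745 and 28482931) fell from 98.8% ± 1.3 to 85.5% ± 7.9 and from 97.3% ± 5.0 to 77.7% ± 6.5. In 8ND of cohort 1, pair M was at 91.6% ± 1.9 and 89.4% ± 3.2 (n = 5), above all 8P libraries at both sites. Pair N was at 92.7% ± 2.4 and 92.6% ± 1.6 there (n = 6), and overlapped 8P at its lower-coordinate site alone. 8P was not tested against 8ND of cohort 1. Without the 8ND library of mouse 1856, the mean change of both sites was −23.9 points at pair L and −17.5 at pair N, with both sites still called, and pair M had too few covered libraries. The adjusted p by limma at these 4 pairs was 0.056 to 0.18.

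Opposite calls were rare, at 5 of 2614, 2 of 2378 and 1 of 3189 pairs in the comparisons with polyps and 0 in those of ND tissue. Couples more than 1000 bp apart gave 0 of 322, 0 of 325 and 0 of 1012 in the comparisons with polyps. The share over all adjacent couples was not computed. The largest opposite change was that of pair K (chromosome 8, positions 117229304 and 117229497, 193 bp apart). Its higher-coordinate site was nearly unmethylated in 27 ND libraries of both cohorts, at 0% to 11.9%. It was at 59.0% to 99.3% (median 97.15%) in 0P and at 88.6% to 99.5% (median 94.8%) in 8P. The rise of 81.2 points in 0P against 0ND had an adjusted p of 0.000874 by limma, with 38 to 222 reads per library. The lower-coordinate site moved the other way, from 64.5% ± 7.2 to 42.2% ± 22.4 (n = 6 each; adjusted p = 0.753), and from 62.3% ± 13.5 to 53.3% ± 17.7 in 8P against 8ND, which was not called. The opposite calls of pair K held in 3 of 12 fits without 1 library and were lost with the mouse as a block.

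The 8ND library of mouse 1856 stood apart at pair K. Its higher-coordinate site had 111 methylated of 115 reads there (96.5%, 95% Wilson interval 91.4% to 98.6%; adjusted 97.4%), inside the range of the polyps and outside that of the other ND libraries. Over the pair sites covered in at least 10 polyp and 20 other ND libraries (5507 sites), 3 had all polyps above all other ND libraries and 8 all polyps below. Of these 11, 9 were covered in the 8ND library of mouse 1856, which lay in the polyp range at 5 and in the ND range at 2. Among 5065 pair sites with a median of 50 or more reads in the other ND libraries, 9 had 5 or fewer reads in every polyp library, and 8 of these had 5 or fewer reads in this library as well. At the 134 pair sites called without overlap in 0P against 0ND, it was nearer to the 0P than to the 0ND mean at 65 of 129 sites (50.4%), while the other 5 libraries of 8ND gave 23.1% to 41.0% and those of 8P 55.5% to 91.0%. The counts of separated sites and of sites without reads in polyps were made at pair sites alone. No share over all listed sites can be set beside them. What set this library apart was not tested.

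Pair O (chromosome 8, positions 124718266 and 124718473, 207 bp apart) changed in opposite directions on both diets. Its sites in 0ND of cohort 2 were at 46.7% ± 9.75 and 40.9% ± 10.6 and in 0P at 65.8% ± 8.4 and 14.0% ± 10.5 (n = 6 each), without overlap at either site. In 8ND they were at 31.9% ± 8.0 and 31.0% ± 18.9 (n = 5) and in 8P at 51.9% ± 12.1 and 13.6% ± 4.6 (n = 7), with both sites called and with overlap. The lower-coordinate site thus rose by 19.2 and 20.1 points and the other fell by 26.9 and 17.5, with an adjusted p by limma of 0.14 to 0.56. In 8P against 8ND the opposite calls held in 5 of 13 fits without 1 library and were lost with the mouse as a block. In 0ND of cohort 1 the sites were at 46.2% ± 9.0 and 48.9% ± 10.6 (n = 5).

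**Figure D4:**
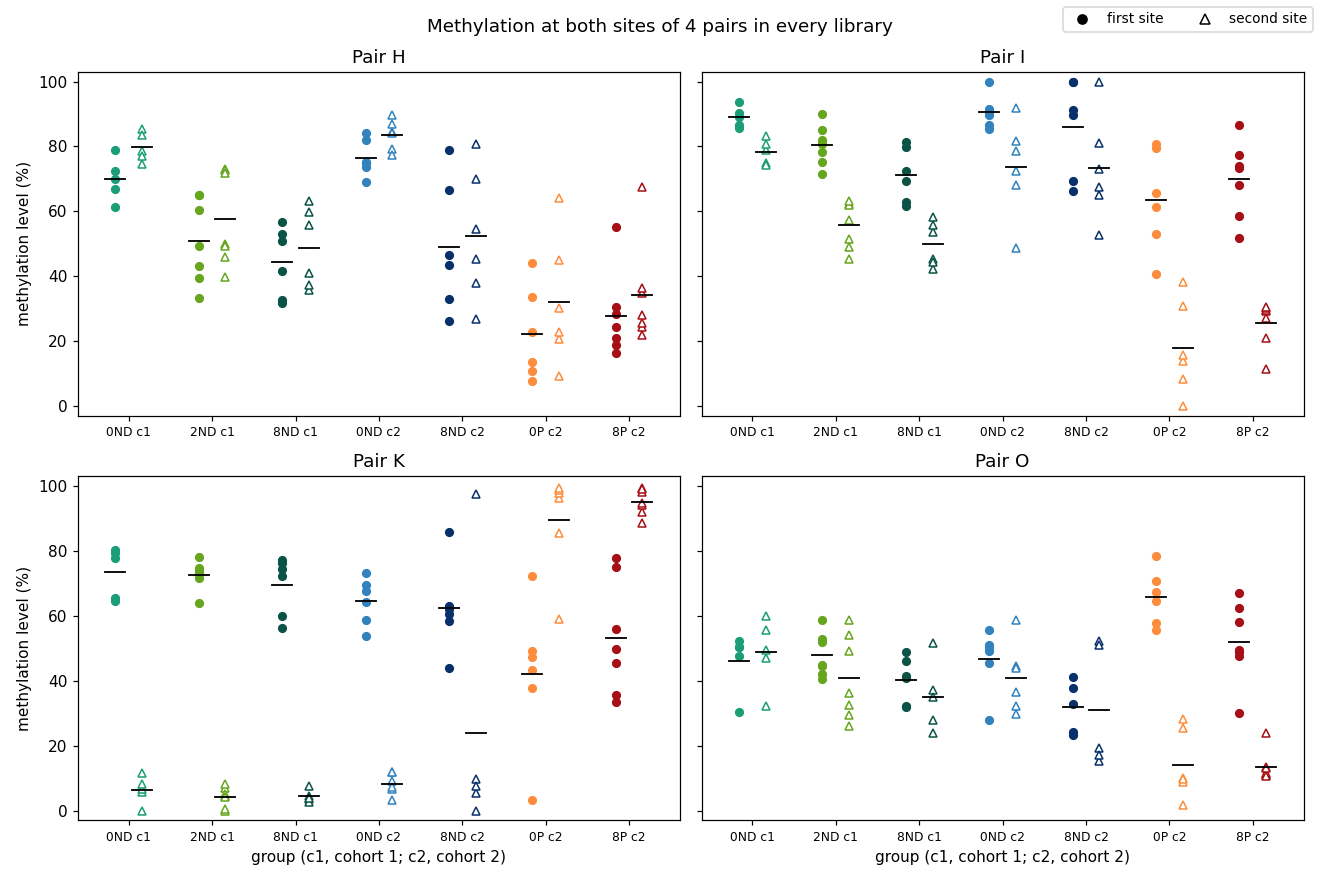
Adjusted methylation level (%) at both sites of pairs H, I, K and O in every covered library, by group of cohort 1 (c1) and cohort 2 (c2); filled circles are the lower-coordinate site, open triangles the other, and bars the group means. The sites of pair H fall together, those of pair I draw apart, and at pairs K and O they move in opposite directions in polyps, with 1 library of 8ND in cohort 2 at 97.4% at pair K.

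The wider differences within pairs in polyps were then set out mouse by mouse at the same 1081 pairs, which had 20 reads at both sites in every library of cohort 2. The tests by mouse were added after wider differences had been seen in these same libraries. The mean absolute difference within pairs was 4.98 ± 0.72 points in 0ND (SD, n = 6) and 9.85 ± 2.16 in 0P (n = 6). It was higher in the polyp in 6 of 6 mice, by 4.87 ± 2.04 points (exact sign-flip test, two-sided, p = 0.03125, the smallest p that 6 mice allow). In 8ND it ranged from 1.68 to 8.94 points (mean 5.30 ± 2.63, n = 6) and in 8P from 7.83 to 9.12 (mean 8.27 ± 0.41, n = 7). The polyp value was higher in 5 of 6 mice, by 2.98 ± 2.94 points (exact p = 0.0625), and mouse 1856 had the opposite sign. Without mouse 1856 the difference was 3.72 ± 2.58 points in 5 of 5 mice (exact p = 0.0625, the smallest p that 5 mice allow).

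At pairs with deeper coverage, a smaller part of the pairs, the differences within pairs were smaller in every group. At the 108 pairs with 100 reads at both sites in every library of cohort 2, the polyps exceeded their own epithelium by 1.85 ± 1.17 points on 0 mg FA (6 of 6 mice; exact p = 0.03125) and by 1.21 ± 1.31 on 8 mg FA (5 of 6 mice; exact p = 0.09375). The mean difference within these pairs was 1.73 ± 0.38 points in 0ND and 3.59 ± 1.201 in 0P (n = 6 each), and 2.09 ± 1.24 in 8ND (n = 6) and 3.28 ± 0.34 in 8P (n = 7). Over the 1081 pairs, the median reads per site averaged 184 in 0ND, 219.5 in 0P, 151 in 8ND and 509 in 8P, without a common direction by mouse on 0 mg FA. The 0P library had fewer reads than the 0ND library in 3 of 6 mice, among them mouse 1805 (108 against 123.5 reads), whose polyp had the largest mean difference within pairs (13.8 points). On 8 mg FA the polyps had more reads in 6 of 6 mice. The part of read depth in these differences was not tested. Over 20 points of difference was found at 6.80% ± 1.66 of these pairs in 0ND, 17.5% ± 3.1 in 0P, 8.60% ± 6.40 in 8ND and 15.0% ± 1.3 in 8P. The 8ND library of mouse 1856 had 16.8%.

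**Figure D5:**
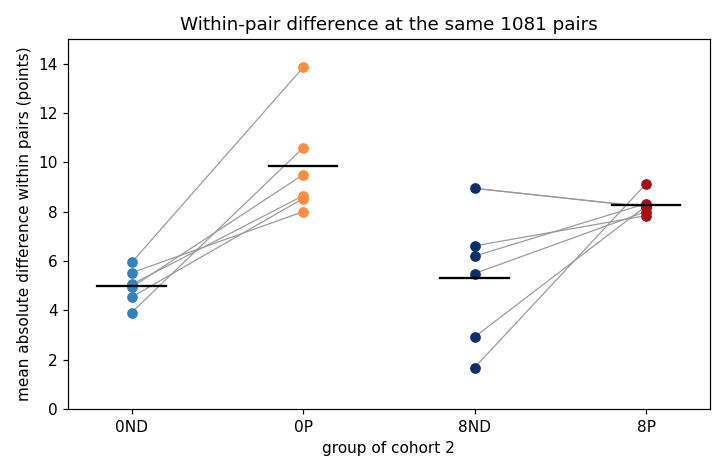
Mean absolute difference between the 2 sites of a pair in percentage points (y axis) at the same 1081 pairs in each library of 0ND, 0P, 8ND and 8P of cohort 2; lines join libraries of the same mouse and bars mark group means. All 6 polyps on 0 mg FA lie above their own epithelium, and on 8 mg FA 5 of 6 mice do, mouse 1856 starting at 8.94 points.

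Polyps of both diets were compared last. For 8P against 0P, 8 of 3189 pairs were lower at both sites (beside 0.0821% of all adjacent couples) and 13 were higher (beside 0.189%). Another 1 was opposite and 241 had a call at 1 site. Pair sites were called in 4.47% of tests (all sites 3.18%, with 1.35% lower and 1.82% higher, and no overlap at 0.47%), and both sites the same way in 0.659% (all adjacent couples 0.271%). The direction depended on the measure: with unadjusted percentages 14 pairs were lower and 4 higher, and with the quasi-binomial test on the counts 36 were lower and 4 higher. Limma called 2 sites over the whole table after adjustment and both sites of no pair. Leaving out the 8P library of mouse 1841 gave 7 pairs, that of mouse 1858 gave 10, and the 0P libraries of mice 1805 and 1839 gave 10 and 13. The changes of the 2 sites had r = 0.227 within pairs and −0.00037 over 1012 couples beyond 1000 bp.

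The pairs that fit the rule here had nearly no methylation in 0P and more in 8P. Pair P (chromosome 12, positions 58676980 and 58677116, 136 bp apart) was at 0% to 0.92% in 0P at its lower-coordinate site and at 1.79% to 22.3% (median 12.1%) in 8P, and at 0% to 0.90% and 3.47% to 26.2% (median 8.27%) at the other. Pair Q (chromosome 5, positions 65095487 and 65095557, 70 bp apart) was listed at 0% in all 6 libraries of 0P and at 1.92% to 11.8% in 8P at its lower-coordinate site. At the other site it was at 0% to 2.44% in 0P and 4.51% to 19.1% in 8P. These 0P libraries had 29 to 298 reads at the 4 sites and the 8P libraries 81 to 974. In 0ND of cohort 2, pair P was at 7.74% ± 8.05 and 3.96% ± 2.51 (n = 6). In 8ND it was at 3.50% ± 2.70 and 2.44% ± 2.29 (n = 6). Pair Q was at 1.75% ± 2.39 and 1.69% ± 2.32 in 0ND (n = 5). In 8ND it was at 0% and 9.24% ± 5.73, with 3 libraries covered at each site. Pair R (chromosome 2, positions 148221070 and 148221188, 118 bp apart) was called in opposite directions, from 1.40% ± 3.43 to 10.5% ± 9.2 and from 28.4% ± 15.8 to 10.6% ± 5.9, with overlap at both sites, and both calls held in 4 of 13 fits without 1 library. The adjusted p by limma was 0.51 to 0.84 at these 3 pairs.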

How the data were processed

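Genomic DNA of 43 libraries had been analyzed by DREAM. The authors mapped the reads with Bowtie2 and SAMtools, per the labels (versions not given in the sources used here; the methods name the human genome, the sites are named for mm9), and deposited for each CCCGGG site the count of reads of either state, the percent of them that were methylated (raw percent) and an adjusted percent corrected with 18 spiked standards. In the deposited files, total reads were checked to be the sum of both kinds, and the adjusted percent to follow from the raw by 1 odds factor per library.

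Neighbors were found by position over all listed sites. Levels are adjusted percentages of libraries with at least 20 reads at a site. Each comparison was fitted at every listed site with 20 reads in at least 4 libraries of both groups, and the sites of pairs were read out. The main test is the equal-variance test described with the results. limma's moderated test was recomputed in Python 3.11.15 (numpy 2.4.6, scipy 1.17.1, pandas 2.3.3) and checked against limma 3.58.1 in R 4.3.3, and all tests were tested on simulated data. Adjusted p-values are Benjamini-Hochberg values over the whole table. Libraries of a group were from different mice except the 2 lesions of mouse 1856.

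Named pairs were, per comparison, the 3 with the largest mean change among pairs called the same way without overlap at both sites, the opposite pair with the largest gap, the 3 largest level differences at 200 bp or less and at 700 to 1000 bp in 0ND of cohort 1, and the 5 largest called in both cohorts. The pairs and rules were chosen with earlier results of these data known. Comparisons that share a group share its libraries. Polyp and epithelium were paired by mouse number; over pair sites, deviations of the same mouse correlated at −0.013 to 0.036 (0P and 0ND) and −0.042 to 0.322 (8P and 8ND). Files go with the sample they were deposited under. Intervals and limits cover counting error only.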

Additional observations from a re-analysis of the deposited data

Results flagged for a closer look

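In 128 sets of values from groups of 4 to 10 libraries, 17 had a library far from the others by Dixon's test at 95%, which chance alone gives in about 1 set of 20. Among library measures, the 8ND library of mouse 1856 in cohort 2 had a median difference within pairs of 4.88 points, far above the other 5, and the 8ND library of mouse LC1844 in cohort 1 had 2153 covered pairs and a mean pair level of 25.8%, both the lowest of the group.

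In 2ND, mouse LC1832 stood low at pair E (57.7% and 69.1% at the 2 sites) and at the lower-coordinate site of pair F (54.8%). In 0ND of cohort 2, mouse 1805 stood high at both sites of pair J (78.1% and 87.5%), and mouse 1809 at the higher-coordinate site of pair V (66.3%). At higher-coordinate sites, mouse 1807 was low at pair K in 0P (59.0%), mouse 1856 low at pair N in 8ND of cohort 2 (88.5%) and mouse 1830 high at pair O in 8P (23.8%). Where a group was near 0, single libraries stood high: mouse 1808 in 0P at both sites of pair P (0.92% and 0.90%) and at the higher-coordinate site of pair Q (2.44%), the lesion 1856-2 in 8P at the same site of pair Q (19.1%) and mouse 1809 in 0P at the lower-coordinate site of pair R (8.40%).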

How the results depend on the processing

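Pairs with both sites called the same way numbered 125 (8ND against 0ND, cohort 1), 116 (2ND against 0ND), 31 (8ND against 0ND, cohort 2), 83 (0P against 0ND), 69 (8P against 8ND) and 21 (8P against 0P). With limma and Benjamini-Hochberg adjustment they were 0, 0, 0, 1, 0 and 0, the unadjusted limma counts being 136, 124, 32, 87, 74 and 22. The quasi-binomial test gave 32, 3, 86, 79, 28 and 40, unadjusted percentages 5 in 2ND against 0ND, and 50 reads 19 in 8ND against 0ND of cohort 2 and 40 in 8P against 8ND. Leaving out 1 library at a time gave 75 to 128, 62 to 136, 17 to 35, 59 to 109, 49 to 74 and 7 to 24. Chosen after seeing the data, the fit without the 8ND libraries of mice 1841 and 1858 gave 67. Libraries under 8% on the most-read sites, chosen likewise, gave 20, 38 and 30 in the 3 comparisons of cohort 2 with ND tissue. These fits kept 3 libraries in each ND group and asked for 3 covered libraries per group. With the mouse as replicate block, 76 pairs (0P against 0ND) and 60 (8P against 8ND) were called, and the block ended the opposite calls at pairs K and O and no other named call; averaging both lesions of mouse 1856 gave 70 and 17.

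Pairs differing in level made up, without 1 library at a time, 1.68% to 5.56%, 11.3% to 13.2% and 3.65% to 6.56% of the pairs tested in 0ND, 2ND and 8ND of cohort 1, and 1.06% to 1.88%, 0.144% to 0.265%, 1.498% to 4.16% and 13.6% to 15.4% in 0ND, 8ND, 0P and 8P of cohort 2. At 50 reads they were 5.22% (121 pairs) in 0ND of cohort 1. The median difference within pairs of 8P was 2.82 points at 50 reads. Of the other values for named pairs, 421 kept their call and 91 lost it, and none turned direction. At the minimum of 20 reads a raw level of 0 allows up to 15%, and more after an adjustment by a factor above 1. Small differences between sites with few reads were therefore not detectable.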
